A study of Mus musculus with 6 samples.

Results

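A set of 10 genes of MHC class I antigen presentation was examined in whole-kidney extracts of Vhl knockout and wild-type mice: the heavy chains H2-K1 and H2-D1, the light chain B2m, the peptide transporter subunits Tap1 and Tap2, the loading chaperone Tapbp, the inducible proteasome subunits Psmb8, Psmb9 and Psmb10, and the transcriptional activator Nlrc5. They were chosen by name, and every one was found by Entrez ID among the 25206 rows of the deposited table. RNA of 3 Vhl knockout and 3 wild-type samples, from whole kidneys of untreated male C57BL/6 mice aged 3 months, was hybridised to 1 Affymetrix Mouse Gene 2.0 ST array each. The knockout mice carried the floxed Vhl allele with Hoxb7-Cre-GFP, in which the Hoxb7 promoter limits recombination to part of the tubule cells. For the wild-type mice the labels give the floxed Vhl allele and name no Cre. By these labels, effects of Vhl loss and of the Cre-GFP transgene cannot be told apart, although for its cultured tubule cells the study describes wild-type donors that carry Hoxb7-Cre-GFP. A whole-kidney extract mixes the targeted tubule cells with tubule cells in which Cre is not active and with cells outside the tubule. Values are log2 signals made by the authors with RMA, a method that corrects background and normalizes arrays against each other. A log2 difference (log2 fold change) is Vhl knockout minus wild-type, and a difference of 1 is a doubling. Genotypes were compared for all rows with limma, with Benjamini-Hochberg adjusted p-values, a threshold of 0.05 and standard errors (SE) from the fit. Whether the 3 arrays of a genotype stand for 3 separate mice is not stated, so p-values describe the spread between these samples, which may be technical. Adipocyte genes stood high on knockout replicates 1 and 3, and the values without these arrays are given with the marker genes.

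MHC class I molecules display peptides from inside the cell to CD8 T cells, and almost every nucleated cell makes them. A heavy chain pairs with beta-2-microglobulin and a peptide. The peptide is cut by the proteasome, carried into the endoplasmic reticulum by the TAP1 and TAP2 transporter, and fitted by tapasin together with calreticulin, calnexin and the disulfide isomerase ERp57. Interferon gamma induces most of this set, including the 3 catalytic subunits that replace the constitutive ones to form the immunoproteasome. NLRC5 acts on class I promoters through a conserved module that includes the X and Y boxes.

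The promoters of the heavy chains and of B2m are shown because these genes had among the highest fold changes of the set and their starts hold letters linked to the known inducers of class I. Psmb8, with the highest fold change of the set, is not shown. RefSeq promoter sequences of the mouse assembly GRCm38.p6 matched 8 of the 10 genes. The 250 bases before each start were searched on both strands for GGNNTTNCC (an NF-κB-type site), GAAANNGAA (the core of an interferon-stimulated response element), AGTGAAA (the core of the interferon consensus of class I genes), TGACG (the X2 box core) and ATTGG (the Y box core). The motifs were chosen after the sequences were seen. Capitals mark every match on either strand, and no matches of different motifs overlapped in the sequences shown. The H2-K1 stretch is chr17:34000348-34000597 on the minus strand, that of H2-D1 chr17:35262844-35263093 on the plus strand, and that of B2m chr2:122147437-122147686 on the plus strand.
H2-K1: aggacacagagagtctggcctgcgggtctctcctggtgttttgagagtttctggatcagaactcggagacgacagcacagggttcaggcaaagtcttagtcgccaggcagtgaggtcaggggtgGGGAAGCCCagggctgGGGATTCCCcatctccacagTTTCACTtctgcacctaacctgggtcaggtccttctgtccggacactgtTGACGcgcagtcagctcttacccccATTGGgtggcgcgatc
H2-D1: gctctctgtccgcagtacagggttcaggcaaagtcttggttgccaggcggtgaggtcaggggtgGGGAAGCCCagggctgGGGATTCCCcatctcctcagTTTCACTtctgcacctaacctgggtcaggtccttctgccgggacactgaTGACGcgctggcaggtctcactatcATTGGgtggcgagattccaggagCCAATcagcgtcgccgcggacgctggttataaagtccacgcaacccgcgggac
B2m: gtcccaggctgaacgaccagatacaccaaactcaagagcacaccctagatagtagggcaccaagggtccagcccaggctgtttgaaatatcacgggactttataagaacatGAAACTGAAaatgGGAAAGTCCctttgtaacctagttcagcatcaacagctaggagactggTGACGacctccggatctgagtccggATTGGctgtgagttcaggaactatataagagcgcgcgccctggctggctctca
All 3 hold TGACG followed by ATTGG with 20 bases between them, a spacing found in 25 of 27025 mouse promoters of this length (0.0925%). The spacing of 20 was taken from these 3 sequences themselves, so this share describes it and tests nothing. With 10 to 30 bases allowed, 187 promoters (0.692%) hold the pair, and these 3 are the only ones among the 8 genes. The NF-κB-type letters occur in the same 3 genes of the 8, against 13.3% of all promoters. In H2-K1 and H2-D1 they occur on both strands, and the stretch from the first match to the end of ATTGG is 115 bases long in each, against 78 in B2m. The H2-K1 and H2-D1 sequences share long runs of letters, so their matches are not independent. The response element core occurs in B2m alone of the 8 (7.16% of all promoters), and AGTGAAA in H2-K1 and H2-D1 (3.81%). TGACG alone occurs in 17.9% and ATTGG alone in 34.5% of all promoters. Tap1 and Psmb9 are transcribed away from each other from starts that enclose 225 bases, chr17:34187331-34187555, shown here on the Tap1 strand because these genes share it as a promoter.
Tap1 and Psmb9: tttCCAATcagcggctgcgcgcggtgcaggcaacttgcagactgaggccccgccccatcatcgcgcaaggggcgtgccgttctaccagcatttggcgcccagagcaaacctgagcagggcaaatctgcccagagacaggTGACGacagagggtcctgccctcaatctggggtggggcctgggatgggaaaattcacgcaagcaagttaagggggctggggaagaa
It holds the TGACG and ATTGG letters in opposite orientation and neither interferon motif. A match of letters is a description of the sequence and does not show binding.

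H2-D1 and the light chain gene B2m were higher in the Vhl knockout kidneys, and H2-K1 lay just outside the threshold. H2-D1, a classical heavy chain, had log2 signals of 10.09, 10.18 and 10.11 on the knockout arrays, against 9.52, 9.67 and 9.61 on the wild-type arrays. Every knockout array lay above every wild-type array, as in 11.2% of all rows, with a gap of 0.42 between the groups. The log2 difference was 0.52 (SE 0.075), which is 1.44-fold (95% interval 1.27 to 1.63, limma adjusted p = 0.0157, n = 3 arrays per genotype). B2m, the light chain that all class I molecules share, had 11.46, 11.33 and 11.37 on the knockout arrays, against 10.90, 11.04 and 10.97 on the wild-type arrays. Its means were 11.39 ± 0.062 in the knockout and 10.97 ± 0.067 in the wild-type kidneys (SD), a log2 difference of 0.42 (SE 0.076, limma adjusted p = 0.0364), or 1.34-fold. Again no knockout array reached down to the wild-type values. In a whole-kidney extract more cells of a type and more RNA per cell cannot be told apart. H2-K1, the other classical heavy chain, had 8.67, 8.503 and 8.78 on the knockout arrays, against 7.90, 8.18 and 8.19 on the wild-type arrays. The groups did not overlap, and the arrays within each genotype differed more than for H2-D1. Its log2 difference of 0.56 (SE 0.113) did not pass the threshold (limma adjusted p = 0.0518). It passed after quantile normalization (adjusted p = 0.0496), without dim rows (0.0215) and with trend and robust eBayes (0.0145). It did not pass with array weights (0.0548) or with the replicate number as a block (0.105). Nor did it pass in any fit with 1 array left out (0.0656 to 0.143). Class I heavy chains resemble each other in sequence, and the probes behind these rows are unknown here. Signal shared between the rows was not tested.

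**Figure D1:**
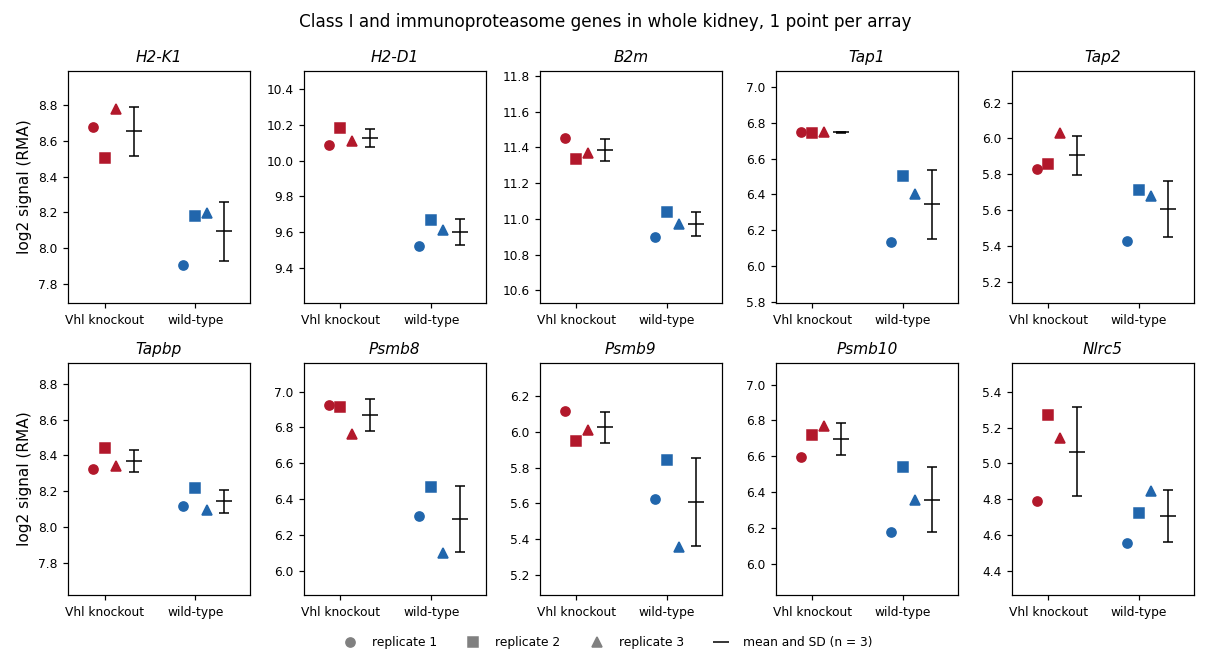
Log2 signal (RMA) of the 10 genes on each array, with Vhl knockout in red on the left and wild-type in blue on the right of each panel. Symbols mark the replicate number, bars the mean and SD of 3 arrays, and every panel spans the same range of log2 units. In 9 of the 10 genes all knockout arrays lie above all wild-type arrays, and in Nlrc5 knockout replicate 1 lies at 4.79, below wild-type replicate 3 at 4.85.

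The peptide transporter and its chaperone had smaller differences, none past the threshold. Tap1, one of the 2 chains of the transporter, had 6.75 on each of the 3 knockout arrays, against 6.13, 6.50 and 6.40 on the wild-type arrays. The knockout arrays lay within 0.005 of each other, while the wild-type arrays spread over 0.37. The log2 difference was 0.40 (SE 0.104, limma adjusted p = 0.104). Tap2, the other chain, had 5.83, 5.86 and 6.03 on the knockout arrays, against 5.43, 5.71 and 5.68 on the wild-type arrays, a log2 difference of 0.30 (adjusted p = 0.205). Tapbp, which encodes tapasin, had 8.33, 8.44 and 8.34 on the knockout arrays, against 8.12, 8.22 and 8.10 on the wild-type arrays. Its log2 difference of 0.22, with a 95% interval of 0.05 to 0.40, was the smallest of the 10 genes (adjusted p = 0.194). In all 3 genes every knockout array lay above every wild-type array, as in 11.2% of all rows. The gaps were 0.24, 0.12 and 0.11 in the order given.

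Among the inducible proteasome subunits, Psmb8 was higher in the knockout kidneys. Psmb8, which replaces the chymotrypsin-like subunit Psmb5, had 6.92, 6.91 and 6.76 on the knockout arrays, against 6.30, 6.47 and 6.10 on the wild-type arrays. The log2 difference of 0.58 (SE 0.109) was the highest of the 10 genes (1.49-fold, 95% interval 1.25 to 1.78, limma adjusted p = 0.0411). Psmb9, which replaces Psmb6, had 6.11, 5.95 and 6.01 on the knockout arrays, against 5.62, 5.84 and 5.36 on the wild-type arrays. Its log2 difference was 0.42 (SE 0.128, adjusted p = 0.163), and the wild-type arrays spread more widely (SD 0.244) than the knockout arrays (SD 0.085). Psmb10, which replaces Psmb7, had 6.59, 6.72 and 6.77 on the knockout arrays, against 6.18, 6.54 and 6.35 on the wild-type arrays, a log2 difference of 0.34 (adjusted p = 0.177). The groups of Psmb9 and Psmb10 did not overlap, with the knockout above as in 11.2% of all rows and gaps of 0.10 and 0.06. After quantile normalization those of Psmb10 did.

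Nlrc5, which encodes the class I activator, had the dimmest row against its arrays, above the array median on 2 of 6 arrays, where the other 9 genes were above it on all. It had 4.79, 5.27 and 5.14 on the knockout arrays, against 4.56, 4.72 and 4.85 on the wild-type arrays. Knockout replicate 1 stood among the wild-type arrays and the other knockout arrays stood above them. The log2 difference was 0.36 (SE 0.139, limma adjusted p = 0.253). With 1 array left out it ran from 0.26 without knockout replicate 2 (adjusted p = 0.435) to 0.50 without knockout replicate 1 (adjusted p = 0.114).

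Over the whole set, 3 of 10 genes passed as higher and none as lower, and 7 did not pass, while 2.24% of all rows were higher and 0.524% lower. At an unadjusted p under 0.05 all 10 genes were higher and none lower, against 8.67% of all rows higher and 8.38% lower. Every knockout array lay above every wild-type array in 9 of 10 genes, against 11.2% of all rows. The median log2 difference was 0.41, with a range of 0.22 to 0.58, while the median over all 25206 rows was -0.03 and their upper quartile 0.08. The share of rows with a higher log2 difference was 2.44% for Psmb8 and 10.5% for Tapbp, the ends of this range. The 95% intervals of these 2 genes overlapped (0.32 to 0.83 for Psmb8 and 0.05 to 0.40 for Tapbp), and differences between genes in this order were not tested.

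**Figure D2:**
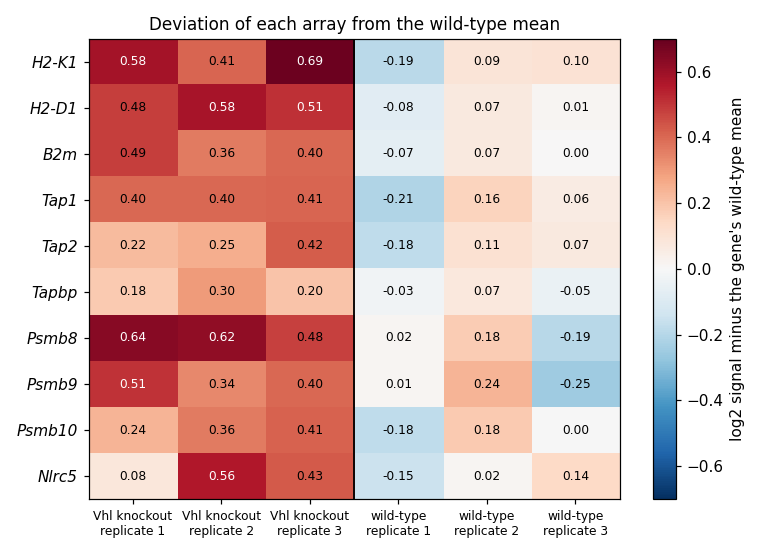
Log2 signal of each gene on each array minus the wild-type mean of that gene, with the 3 Vhl knockout arrays left of the line and the 3 wild-type arrays right of it. The knockout values run from 0.08 for Nlrc5 to 0.69 for H2-K1, and the wild-type values from -0.25 for Psmb9 to 0.24 for the same gene.

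The wild-type arrays were not equal in this set. Wild-type replicate 1 gave the lowest wild-type value in 7 of 10 genes and replicate 3 in the other 3, which were Tapbp, Psmb8 and Psmb9. Wild-type replicate 2 gave the highest in 8. Averaged over the 10 genes, the deviation from the wild-type mean was 0.38, 0.42 and 0.43 on knockout replicates 1, 2 and 3, against -0.10, 0.12 and -0.01 on the wild-type replicates in the same order. On the knockout arrays no replicate was high throughout, and the highest value fell on replicates 1, 2 and 3 in 3, 3 and 4 genes. With 1 array left out, H2-D1 passed without knockout replicate 1 (adjusted p = 0.0444) and without wild-type replicate 2 (0.0439) and had 0.0557 to 0.0683 without each of the others. Psmb8 passed without wild-type replicate 2 (0.0477) and had 0.0828 to 0.128 without each of the others, and B2m had 0.0784 to 0.131 without any 1 array. Their log2 differences stayed at 0.38 or above. Quantile normalization gave Psmb8 a log2 difference of 0.54 and an adjusted p of 0.0540.

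Among the constitutive proteasome genes no difference passed the threshold. Of 12 measured core subunits, none was higher or lower in limma, against 2.24% of all rows higher and 0.524% lower. At an unadjusted p under 0.05, where 8.67% of all rows were higher and 8.38% lower, none of these subunits was higher and 3 were lower. Their median log2 difference was -0.13, against -0.03 over all rows, and in 7 of them every knockout array lay below every wild-type array, against 12.7% of all rows. Psmb1, a structural beta subunit, had 8.40, 8.58 and 8.65 on the knockout arrays, against 8.77, 8.70 and 8.87 on the wild-type arrays (log2 difference -0.24, adjusted p = 0.257). Psma5, an alpha subunit with a dim row, had 3.19, 2.60 and 2.33 on the knockout arrays, against 3.10, 3.01 and 4.20 on the wild-type arrays (log2 difference -0.73, adjusted p = 0.341). The groups of Psma5 overlapped, and without wild-type replicate 3 its log2 difference was -0.35. Psmb6 had a log2 difference of 0.01 (adjusted p = 0.962), which was -0.03 without knockout replicate 2 and 0.12 with the adipocyte signal as a covariate. Psmb7 had one of -0.19 (adjusted p = 0.431), which was -0.08 without knockout replicate 1 and -0.03 with that covariate. Psmb5 had no named row here, so the planned comparison of Psmb8 with Psmb5 could not be made.
The difference between an inducible subunit and the one it replaces was also taken within each array. Psmb10 minus Psmb7 was -2.24, -2.43 and -2.41 on the knockout arrays, against -3.002, -2.76 and -2.89 on the wild-type arrays. It was 0.52 higher in the knockout kidneys. Psmb9 minus Psmb6 was -3.21, -3.57 and -3.42 on the knockout arrays, against -3.72, -3.62 and -4.07 on the wild-type arrays, 0.41 higher in the knockout kidneys. In both pairs the genotypes did not overlap. For each pair the permutation test over arrays (exact, two-sided) had p = 0.1, and 0.1 after adjustment over the 2 pairs, the smallest p that 3 arrays against 3 allow. After quantile normalization the exact test of Psmb9 minus Psmb6 had p = 0.2. These values give no ratio of the amounts of 2 subunits, since each row has its own probes.

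**Figure D3:**
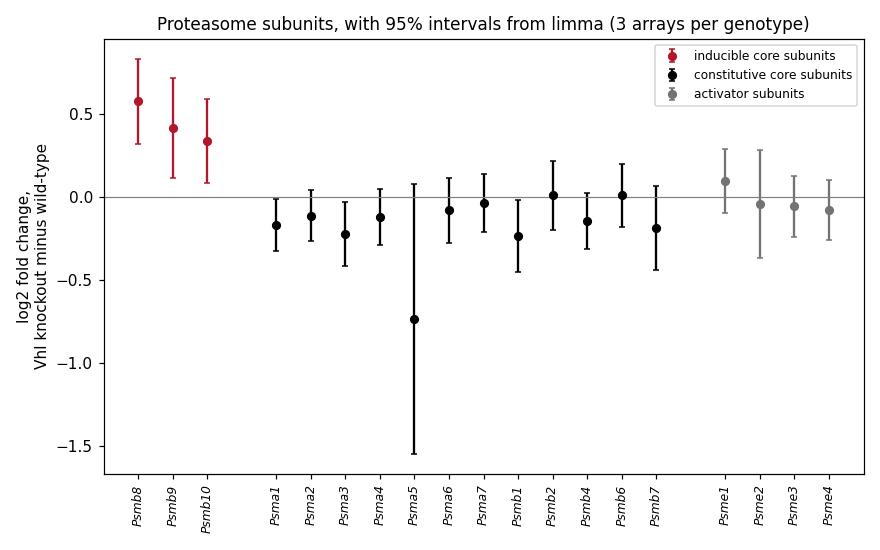
Log2 difference, Vhl knockout minus wild-type, of inducible core subunits (red), constitutive core subunits (black) and activator subunits (grey), with 95% intervals from limma over 3 arrays per genotype. The inducible subunits lie at 0.34 to 0.58 with intervals above 0, and the constitutive subunits at -0.73 to 0.01, where -0.73 is Psma5, at -0.35 without wild-type replicate 3.

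The other parts of the pathway were given by lists of genes. Of 9 proteasome activator and assembly genes limma called none higher and none lower, against 2.24% of all rows higher and 0.524% lower. The same held at an unadjusted p under 0.05, where 8.67% of all rows were higher and 8.38% lower. This list includes Psme1 and Psme2, chosen here after their values were seen, the interferon-inducible activator subunits that work with the immunoproteasome, with log2 differences of 0.10 (adjusted p = 0.605) and -0.04 (adjusted p = 0.914). The assembly chaperones Psmg1 and Psmg2 had -0.14 (adjusted p = 0.403) and -0.12 (adjusted p = 0.467). Of 10 other genes of peptide loading and trimming, none passed, nor at an unadjusted p under 0.05, against the same shares of all rows. The median was -0.03. Erap1, the aminopeptidase that trims peptides in the endoplasmic reticulum, had 7.29, 7.31 and 7.33 on the knockout arrays, against 7.17, 7.16 and 7.15 on the wild-type arrays. These groups did not overlap, with the knockout above as in 11.2% of all rows, and the log2 difference was 0.15 (adjusted p = 0.312). Pdia3, which encodes ERp57, had -0.09 (adjusted p = 0.610). The chaperones Calr and Canx, picked with their values in view, had -0.0035 (95% interval -0.19 to 0.19) and -0.02 (-0.18 to 0.13).

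**Figure D4:**
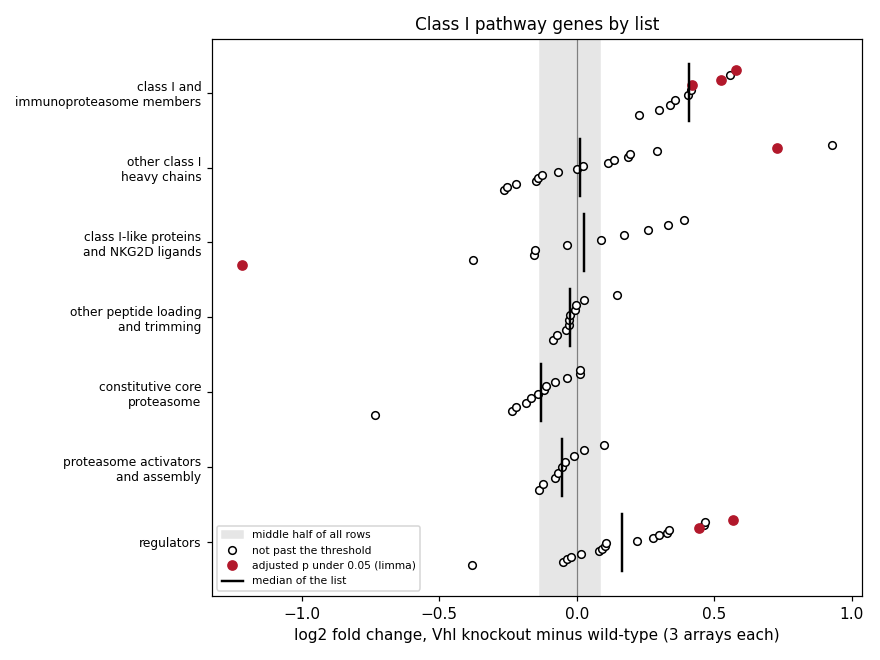
Log2 difference, Vhl knockout minus wild-type (3 arrays each), of every measured gene of the 10-gene set and of 6 lists of related genes. Red points have an adjusted p under 0.05 in limma, open points do not, black lines are list medians, and the grey band holds the middle of all rows, between their lower quartile of -0.13 and upper quartile of 0.08. The 10 genes lie between 0.22 and 0.58, right of the band.

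The remaining heavy chain genes had log2 differences of both signs, 9 positive and 7 negative. Of 16 measured class I heavy chains other than H2-K1 and H2-D1, 1 was higher and none lower, against 2.24% and 0.524% of all rows, and 15 did not pass. Their median log2 difference was 0.01. H2-M2, a nonclassical heavy chain with a dim row, under the array median on all 6 arrays, had 4.75, 5.04 and 4.98 on the knockout arrays, against 3.90, 4.38 and 4.30 on the wild-type arrays (log2 difference 0.73, limma adjusted p = 0.0466). When any 1 array was dropped it no longer passed (0.0714 to 0.132). H2-Q7, a nonclassical heavy chain of the Qa-2 group, had 5.72, 5.45 and 5.63 on the knockout arrays, against 4.03, 4.44 and 5.56 on the wild-type arrays. One wild-type array stood within the knockout values, and the log2 difference of 0.93 (SE 0.350) did not pass (adjusted p = 0.238). Without that array, wild-type replicate 3, it was 1.37 and passed (adjusted p = 0.0219), and without wild-type replicate 1 it was 0.61. H2-T23, which encodes the Qa-1 heavy chain and was picked with its values in view, had 7.78, 7.97 and 7.56 on the knockout arrays, against 7.63, 7.95 and 7.73 on the wild-type arrays (log2 difference 0.0027, adjusted p = 0.995).
Of 10 class I-like genes and ligands of the NKG2D receptor, none was higher and 1 was lower, against 2.24% and 0.524% of all rows. Azgp1, a secreted class I-like glycoprotein that binds no beta-2-microglobulin, had 7.42, 8.06 and 8.11 on the knockout arrays, against 9.25, 8.68 and 9.31 on the wild-type arrays. It fell by 1.22 on the log2 scale (SE 0.232, limma adjusted p = 0.0424, and 0.0431 to 0.144 with 1 array left out). Cd1d1, which presents lipids to NKT cells, had a log2 difference of 0.39 (adjusted p = 0.492), which was -0.02 once the adipocyte signal entered the fit as a covariate.

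Of 18 measured regulators of class I, 2 were higher and none lower, and 16 did not pass, with a median log2 difference of 0.16. The shares over all rows were 2.24% higher and 0.524% lower. At an unadjusted p under 0.05, where 8.67% of all rows were higher and 8.38% lower, 9 regulators were higher and 1 lower. In 10 of them every knockout array lay above every wild-type array, against 11.2% of all rows. Irf8, an interferon regulatory factor made mainly by myeloid and B cells, had 6.11, 6.13 and 6.03 on the knockout arrays, against 5.45, 5.62 and 5.51 on the wild-type arrays (log2 difference 0.57, SE 0.078, limma adjusted p = 0.0141). Ifngr1, the ligand-binding chain of the interferon gamma receptor, had 8.57, 8.35 and 8.33 on the knockout arrays, against 7.96, 7.94 and 8.01 on the wild-type arrays (log2 difference 0.45, adjusted p = 0.0486). With 1 array left out Irf8 passed in 3 of 6 fits (adjusted p 0.0355 to 0.0625) and Ifngr1 in none (0.0884 to 0.150). Ifng itself had 3.81, 4.09 and 3.88 on the knockout arrays, against 4.28, 4.43 and 4.21 on the wild-type arrays. The knockout arrays were the lower ones, under the array median throughout, and the log2 difference was -0.38 (SE 0.103, adjusted p = 0.118). Irf1, an interferon-induced activator of class I genes, had 5.92, 5.85 and 5.72 on the knockout arrays, against 5.398, 5.58 and 5.53 on the wild-type arrays (log2 difference 0.33, adjusted p = 0.113). Stat2 and Irf9, picked with their values in view, partners in the type I interferon complex, had 0.47 (adjusted p = 0.107) and 0.46 (adjusted p = 0.0784).

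Macrophage markers were higher in the knockout kidneys alongside these genes. Of 11 measured macrophage markers, 9 were higher and none lower, and in all 11 every knockout array lay above every wild-type array, against 2.24% of all rows higher and 11.2% not overlapping in this direction. The same 2.24% is the background of the single calls in the other marker lists. Their summed log2 signal was 75.07 to 75.64 on the knockout arrays, against 61.62 to 64.46 on the wild-type arrays. Their deviations from the wild-type mean were 1.12, 1.07 and 1.09 on knockout replicates 1, 2 and 3. Macrophages carry much class I and immunoproteasome RNA, and their part in the differences above was not tested. Of 8 dendritic cell markers 1 was higher (Itgax, picked with its value in view, which macrophages also express), with list means of 4.55 to 4.78 on the knockout arrays, against 4.47 to 4.61 on the wild-type arrays. Of 12 markers of T and NK cells 1 was higher (Cd4, named for that reason). Log2 differences were positive in 6 of these 12 and negative in 6. List means were 4.59 to 4.83 on the knockout arrays, against 4.50 to 4.62 on the wild-type arrays. Cd8a and Cd8b1, the chains of the class I co-receptor and picked with their values in view, had log2 differences of 0.36 (adjusted p = 0.537) and 0.18 (adjusted p = 0.670), with overlapping groups. Of 5 markers of B and plasma cells 1 was higher (Ighm, likewise). Log2 differences were positive in 2 of these 5 and negative in 3. List means were 4.58 to 4.65 on the knockout arrays, against 4.44 to 4.71 on the wild-type arrays. Of 8 endothelial markers 1 was higher (Tie1, likewise), with means of 8.07 to 8.34 on the knockout arrays, against 7.92 to 7.95 on the wild-type arrays. In 5 of these 8 every knockout array lay above every wild-type array, against 11.2% of all rows, and in none below. The same held for 2 of the dendritic cell, 2 of the T and NK cell and 1 of the B and plasma cell markers. All 8 tubule markers, which check the tissue label, lay above the array median on every array, and none passed the test (means 10.39 to 10.44 in the knockout, 10.47 to 10.51 in the wild-type kidneys).
None of 6 adipocyte markers passed, but their mean was 7.34 and 6.48 on knockout replicates 1 and 3, while knockout replicate 2 had 4.90 and the wild-type arrays had 4.63 to 5.10. Over the 10 genes, knockout replicates 1, 2 and 3 averaged 0.38, 0.42 and 0.43 above the wild-type mean. In the same order they were the lowest knockout array in 5, 4 and 1 genes. The part of adipocyte RNA in these differences was not tested beyond the settings that follow. With the mean adipocyte signal as a covariate, or without knockout replicates 1 and 3, settings chosen after seeing the data, all 10 log2 differences were positive and none passed, while rows higher overall numbered 91 and 8, against 565. H2-D1 then had 0.58 in each setting (adjusted p = 0.10 and 0.192), B2m 0.36 and 0.37 (0.269 and 0.345) and Psmb8 0.56 and 0.62 (0.257 and 0.295). Nlrc5 had 0.63 and 0.56, against 0.36 with all arrays and no covariate. The other 6 genes had 0.29 to 0.48 with the covariate and 0.25 to 0.41 without these arrays.

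Vhl, the targeted gene, had 6.08, 6.18 and 6.10 on the knockout arrays, against 6.11, 6.12 and 6.03 on the wild-type arrays, a log2 difference of 0.03. The exons that this row reads are unknown here, and it checks no label. The array medians lay within 0.0356 of each other, and each array correlated more closely with its own genotype (mean r 0.992 to 0.994) than with the other (0.987 to 0.991).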

How the data were processed

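Whole-kidney RNA was read on 6 Affymetrix Mouse Gene 2.0 ST arrays, 3 labelled Vhl knockout and 3 wild-type. Groups and replicate numbers came from the sample labels. The deposited values are log2 signals from RMA, run by the authors, with 1 row per Entrez Gene ID. Software, version and build were not given in the sources used here. A second deposited table holds the same log2 values, equal within 1e-06 in all 25206 rows, beside the authors' own comparison of the genotypes (a moderated statistic, a score with no fixed range, and p-values and q-values), which was not used. All per-sample columns were used (0 left out). Symbols came from the platform annotation, updated by Entrez ID through a RefSeq table of GRCm38.p6. Of the rows, 23185 had a symbol and 2021 had none here.

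The paper names no test for the arrays. The fit used limma (version 3.58.1, under R 4.3.3) with lmFit and eBayes, genotype alone in the model and no filter on dim rows. The Benjamini-Hochberg adjustment ran over every row. Permutation tests used scipy 1.17.1 in Python 3.11.15. The fit was tested on simulated data. The 10 genes, the lists of related genes and markers, and the alternatives were chosen with earlier results of these data known. Genes named were the 10, in each pathway list up to 4 that passed (smallest p first) or, if fewer than 2 did, the 2 of greatest absolute log2 difference, and fixed reference genes, with others marked as picked with their values in view. Motifs were chosen after the promoter sequences were seen. Alternatives were quantile normalization, keeping rows that exceed the array median on 3 or more arrays, trend and robust eBayes, array weights, a block for replicate number, leaving out arrays one by one, and a threshold of 0.1. Arrays have no read depth, so precision is set by their number.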

Additional observations from a re-analysis of the deposited data

How the results depend on the processing

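The number of the 10 genes called higher, 3 as reported, was 3 after quantile normalization (H2-K1 in place of Psmb8) and with array weights, 4 with trend and robust eBayes and at a threshold of 0.1, and 5 of 9 without dim rows, where Nlrc5 was removed. The share of all rows called higher was 2.24% as reported, 3.28% with trend and robust eBayes and 6.57% without dim rows. At the threshold of 0.1 no share of all rows was taken, so that count stands without a background. With 1 array left out, where 0.885% to 1.43% of all rows were called higher, 0 to 2 of the 10 genes were. In 2 settings added once the data had been seen, none passed, both when the adipocyte signal was a covariate and when Vhl knockout replicates 1 and 3 were absent. No gene was called lower in any setting, and all log2 differences of the 10 genes stayed positive. Among the related genes, 3 higher and 1 lower as reported became 0 to 1 higher and 0 to 1 lower with 1 array left out, and 0 and 0 in both settings chosen after seeing the data. With every knockout array above every wild-type array, the count of 9 was 8 after quantile normalization and 9 to 10 with 1 array left out, where 14.6% to 15.5% of all rows did so. Without knockout replicates 1 and 3 it was 10, with 25.2% of all rows.
With the replicate number as a block (a replicate block), 0 of the 10 genes, 1 related gene (H2-M2) higher and 0 lower passed, and the number of rows higher fell to 246, against 565. Same-numbered arrays did not deviate together (correlations 0.036, 0.0731 and -0.0996), so the numbers are not taken to pair the mice. Cd1d1 turned to -0.018 with the adipocyte covariate and -0.025 without knockout replicates 1 and 3, against 0.39 as reported. With 1 array left out, Psmb6, 0.01 as reported, ranged from -0.0348 without knockout replicate 2 to 0.0622 without knockout replicate 1, with -0.0232 without wild-type replicate 1, and it was 0.118 with the adipocyte covariate. The cause of these changes was not tested. The differences within arrays ranged from 0.27 to 0.50 for Psmb9 minus Psmb6 and from 0.47 to 0.59 for Psmb10 minus Psmb7 with 1 array left out.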

Other observations

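Of the 10 genes, 7 lie on chromosome 17, in the MHC region. Between H2-K1 and H2-D1, in the gene order of the RefSeq table, 87 named rows were measured, of which 8 were higher in the Vhl knockout kidneys (9.20%, against 2.24% of all rows) and none was lower. The interval was chosen with earlier results of these data known, and its genes were taken by position alone. Their median log2 difference was 0.02. The 8 were the complement genes C4b, at a log2 difference of 1.24 (limma adjusted p = 0.00732) and C2 with 0.55 (adjusted p = 0.0307), the MHC class II chains H2-Aa with 0.999, H2-Eb1 with 0.88 and H2-Ab1 with 0.76, the class II peptide exchange factor H2-DMa with 0.81, the macrophage marker Aif1 with 0.88, and Psmb8 with 0.58. In each of these 8 genes every knockout array lay above every wild-type array. The 8 were listed for their calls on these same arrays, so this adds nothing to the calls.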
